A study of Drosophila melanogaster with 4 samples.

Results

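ChIP-seq calls for CG1233-GFP whose summits lay inside coding sequence (CDS) or 3′ untranslated regions (3′ UTRs) are described here. ChIP-seq purifies the DNA that is crosslinked to a protein and sequences it. A call is an interval of local read excess, and its summit is the base of highest signal. Members were taken from the authors' pooled list of 30000 calls by position alone. A summit had to lie more than 500 bp from every annotated transcription start site (TSS), in an annotated CDS or 3′ UTR, and outside any annotated 5′ UTR. A summit that was both CDS and 3′ UTR in different transcripts was counted as CDS. This gave 1489 of 30000 calls, with 864 in CDS and 625 in 3′ UTRs. The strongest 5211 pooled calls make up the authors' optimal list, the set kept after a test of reproducibility between replicates, and 67 of the 1489 were among them.

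The protein CG1233 was tagged at its C terminus with green fluorescent protein in 1 transgenic Drosophila melanogaster line. Whole embryos of both sexes, 0 to 24 h old, gave 4 biological replicates, which form the only group, with chromatin sonicated to 200 to 800 bp. All embryonic tissues are therefore mixed, and the tagged protein was supplied by a transgene, by a promoter not given in the sources used here. The labels contradict each other, since the description of each library speaks of an input control while its antibody field names CG1233. The lists were read here as ChIP calls.

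Sequence-specific regulators in flies are mostly mapped to promoters and to enhancers in introns and between genes. Coding exons and 3′ UTRs are transcribed and kept in the mRNA. The former encode protein, and the latter carry the signals for cleavage and polyadenylation and the sites of RNA-binding proteins and microRNAs. Their DNA can also hold enhancers. Fly genes are compact, so that a 3′ UTR may lie near the end or the start of a neighbouring gene. An alternative transcript may use the same bases as an intron.

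Sequences at optimal calls give a first view of these positions. For 10 of the 11 optimal CDS calls, all but the strongest, otp, the 30 bases around the summit are shown. They are in the sense direction of the gene, 5′ to 3′ on the dm6 reference, with coding bases in capitals. They are shown because they run from GC-rich codon repeats to exon borders. In CG4230 and spz the window crosses into coding exon 2 from an intron ending in ag, as splice acceptors do.
Pde1c: CAGCTGCGGAGCCGGCAGATGGCGCTGCGG
l(3)mbn: GTGACAGCGAATACACCAACCGGAAATGTA
CG4230: tcttcaagCAGCTCTTCCGTTTCCGCTTCC
klar: AAAGACGACCTCTGGGCGGCCATTCAAACG
CG4822: CCAACCACTTGAATGGTTCCGCTTTGCCAT
Ubr1: CGCCTCAAGCGCCAGGCGGGCACACTAGAC
CG6330: CTCACCGGAAACAGTGCCTCCCTTTCCGAG
bun: ATATGGCGACGACCAGCAGCAGCAGCAACA
spz: cctgtatctttcagATAGTTTATATCAATA
bif: CCGTCTCCCTTTCGCCCGATGCGGCAGCAA

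The 3′ UTR windows below were chosen to show the 3 strongest calls and calls with a searched word next to the summit. They have the same length and direction, and capitals mark a searched word in either orientation. CG9837, CG13949 and Pbgs hold AATAAA, the poly(A) signal hexamer, or its reverse complement. Their summits lay 1022, 427 and 653 bp from the end of the transcript with the longest 3′ UTR there. Uck, ETHR and chic hold GTAAACA, and CG5895 holds ACTATAG and CTATAGA overlapping by 6 bases.
CG7872: aaagcacgccacattcgcgtgtttcctaac
stas: ctcaaaactggttcttcactgtgcgtatga
Cals: attgcagcagtttttgaaagggtattcaga
CG9837: gcttgattTTTATTtgtTTTATTtttccct
CG13949: gAATAAAcaagccgcaagtgtacacatttg
Pbgs: taagcaaaagAATAAAtattcagggaccag
Uck: caGTAAACAcaattgattgttgatgataaa
ETHR: aatatgcacacaatgtccacatGTAAACAc
chic: agtccccgGTAAACAtttttcatacgagct
CG5895: tataatACTATAGAtccctgcttcagtaat

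Few calls in CDS or 3′ UTRs were strong. Over all pooled calls, 17.4% were in the optimal list. The share was 1.27% for CDS (11 of 864, 95% Clopper-Pearson interval 0.637 to 2.27%) and 8.96% for 3′ UTRs (56 of 625, 6.84 to 11.5%). Among the other positions more than 500 bp from a TSS, it was 11.9% in 5′ UTRs, 16.1% in other exons, 14.9% in introns and 11.5% in intergenic sequence. Promoter calls, within 500 bp of a TSS, reached 27.6%. CDS and 3′ UTR calls were thus below the share of all pooled calls, as was every class other than promoters. CDS was the lowest of the 7 classes. The 3′ UTR interval overlapped those of 5′ UTR calls (8.38 to 16.2%) and intergenic calls (10.7 to 12.3%). A −log10 q above 2 was given to 17 CDS calls (1.97%) and to 63 3′ UTR calls (10.1%), against 21.1% of all pooled calls. These intervals cover counting error only, and neighbouring calls are not independent.

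The same ordering appeared in each replicate's own list. A strong call in a replicate is 1 of its 5211 strongest, as many as the optimal list holds. In CDS, 1.19, 1.00, 1.27 and 1.43% of the calls of replicates 1 to 4 were strong. In 3′ UTRs the shares were 8.997, 7.10, 6.54 and 6.63%, and in introns 15.3, 15.2, 14.4 and 14.7%. The 3 ranges do not overlap. The difference between CDS and introns was -13.7 ± 0.572 percentage points (SD, n = 4), and that between 3′ UTRs and introns was -7.57 ± 0.857. CDS calls were strong less often than 3′ UTR calls by a mean difference of -6.09 ± 1.22 points. All 4 replicates had the same direction in each comparison, and each mean was several times its SD. The exact two-sided sign-flip test gave p = 0.125 in each of the 3 comparisons, which is the smallest p that 4 replicates allow, so none could pass a threshold of 0.05.

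**Figure D1:**
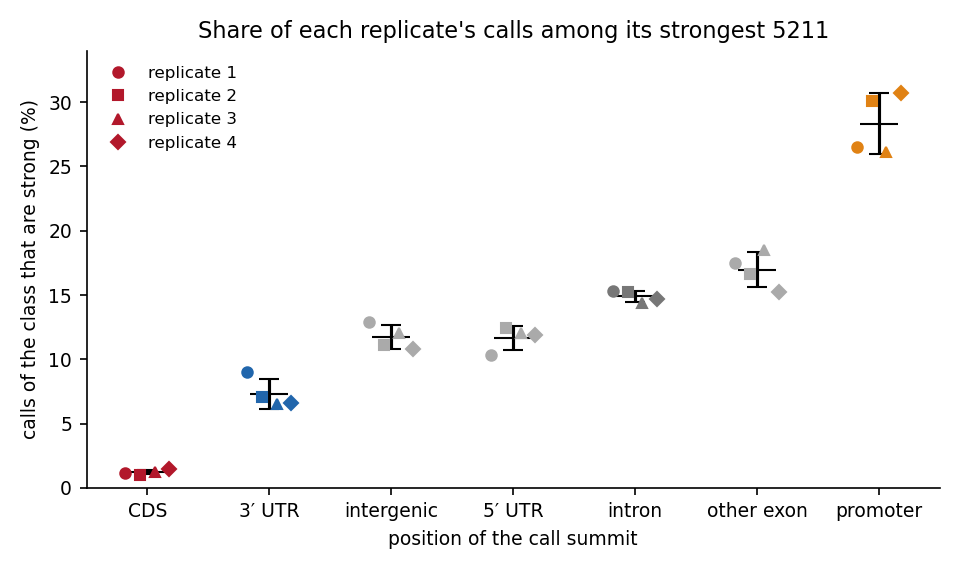
Each point is 1 replicate, and its height is the percentage of that replicate's calls in the class that were among its 5211 strongest. Horizontal bars are means and error bars the SD over 4 replicates. CDS lies between 1.00 and 1.43%, 3′ UTRs between 6.54 and 8.997%, and promoters at 26.1% or more.

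Read the other way, CDS made up a larger share of weak calls than of strong calls. Both shares were below the 13.7% of the arms that was CDS under the distance and 5′ UTR conditions. CDS made up 0.499, 0.230, 0.249 and 0.269% of the strong calls of replicates 1 to 4, and 8.73, 4.78, 4.08 and 3.89% of the remaining calls. The difference was -5.06 ± 2.15 points (SD, n = 4). Replicate 1 had the largest difference, and without it the mean was -4.00 ± 0.490 points. Replicate 1 held 2191 CDS calls, against 1198, 1024 and 978 in the others. Its 3′ UTR count of 678 was the lowest, the others having 718, 811 and 754. For 3′ UTRs the difference was -1.74 ± 0.310 points, again negative in all 4 replicates. Both tests gave the smallest exact p of 0.125.

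Along the pooled ranking, the CDS share rose from 0.2% of the first 3000 calls to 2.4% of ranks 12001 to 15000 and 6.23% of ranks 27001 to 30000. It did not fall from any bin of 3000 to the next. The 3′ UTR share rose from 0.867 to 2.97% with smaller steps, and stayed between 2.3 and 2.97% from rank 12001 on. The median pooled rank was 22188.5 for CDS calls and 18403 for 3′ UTR calls, against 15853.5 for intron and 10451 for promoter calls. In the weakest 3000 calls of the replicates, CDS had 12.7% in replicate 1 and 6.90 to 8.23% in the others.

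**Figure D2:**
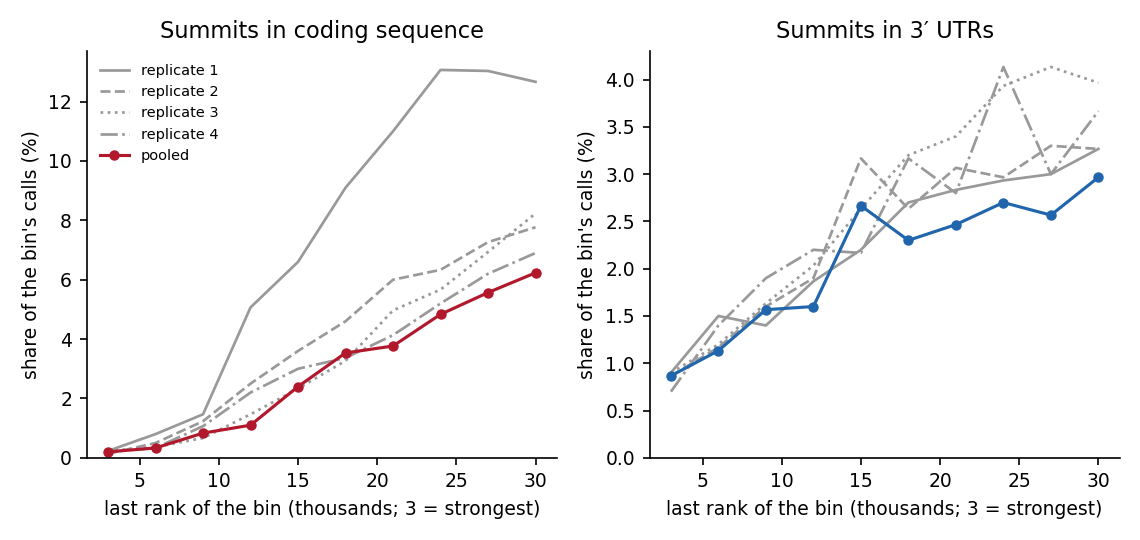
The percentage of calls with a summit in CDS (left) or 3′ UTRs (right) is plotted in bins of 3000 calls, from the strongest at the left to the weakest. Coloured lines are the pooled list and grey lines the 4 replicates. The CDS share climbs to 6.23% in the pooled list, and in replicate 1 it reaches 13.1% at ranks 21001 to 24000 and ends at 12.7%, whereas the 3′ UTR share of the pooled list ends at 2.97%.

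Set against the sequence that was open to them, both classes held fewer calls per Mb than the arms as a whole, promoters included. CDS that met the distance and 5′ UTR conditions made up 13.7% of the arms and held 2.88% of the pooled calls, which is 46.9 calls per Mb. Eligible 3′ UTRs made up 4.43% of the arms and held 2.08% of calls, or 105 per Mb. The arms as a whole had 224 calls per Mb. They include the sequence within 500 bp of a TSS, which held 8798 of the pooled calls and 2424 of the optimal calls. A density for the arms without that sequence was not computed. For optimal calls the densities were 0.598 per Mb in CDS, 9.45 in 3′ UTRs and 38.9 over the arms. By arm, the CDS density ran from 28.4 per Mb on X to 57.5 on 2L. In 3′ UTRs it ran from 91.9 on 2L to 125 on 2R, leaving aside the small arm 4 with only 2 such calls. Whether reads map equally well in these classes was not tested.

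The 11 optimal CDS calls fell into 2 ranges of strength. Ranks of 125, 159 and 549 were followed by a gap to 2494, and the weakest was at 5127. These are pooled ranks, where 1 is the strongest of 30000. Where 4 ranks are given for a gene, they are its ranks in the lists of replicates 1 to 4, in that order. Signal is the authors' own score, and is used only to rank calls within a list.

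The strongest was at otp (FBgn0015524), which encodes the homeodomain transcription factor Orthopedia, in the last of 8 exons (2R from 20884444 to 20884737, summit 20884588). It ranked 111, 121, 192 and 155 in replicates 1 to 4. Its summit was at coding base 1155 of 1251, and 98.0% of the interval was CDS. The second was at Pde1c (FBgn0264815), for a calcium and calmodulin dependent cyclic nucleotide phosphodiesterase (2L from 11816407 to 11816726). It ranked 125, 201, 150 and 153, and lay at coding base 3502 of 3522, so that 47.2% of the interval was 3′ UTR. Both were close to the end of the coding sequence and among the strongest 201 calls of every replicate.

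The third was at l(3)mbn (FBgn0002440), named for a blood neoplasm in mutant larvae (3L from 6124686 to 6124942). It ranked 697, 627, 534 and 517. Its summit was in an exon of 63 bp, and 54.9% of the interval was intron. These 3 calls had narrower intervals than the list median of 424 bp, at 294, 320 and 257 bp.

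The other 8 ranged from bun, with ranks close together, to klar, with ranks far apart. CG4230 (FBgn0031683, 2L from 5096828 to 5097251) ranked 2688, 4544, 1434 and 3890, with its summit at coding base 55. bif (FBgn0014133), for the actin-binding protein Bifocal, ranked 4180, 4032, 1943 and 3828. Both were strong in all 4 replicates. bun (FBgn0259176), for a TSC22-family protein of growth control, ranked 4265, 4507, 4085 and 5925, and CG4822 (FBgn0031220) ranked 1634, 5698, 1527 and 4233. Each of these was strong in 3.

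klar (FBgn0001316), for the nuclear migration protein Klarsicht, ranked 11744, 2868, 23352 and 1912. Ubr1 (FBgn0030809), for a ubiquitin ligase of the N-degron pathway, ranked 8067, 3611, 5548 and 2721. CG6330 (FBgn0039464) ranked 18762, 3619, 5741 and 3715. All 3 were strong in replicates 2 and 4 and weaker in replicates 1 and 3. spz (FBgn0003495), for the Toll ligand Spätzle, ranked 11110, 7962 and 4053 in replicates 1, 2 and 4. Replicate 3 had no summit inside it, and its nearest call was 2692 bp away.

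**Figure D3:**
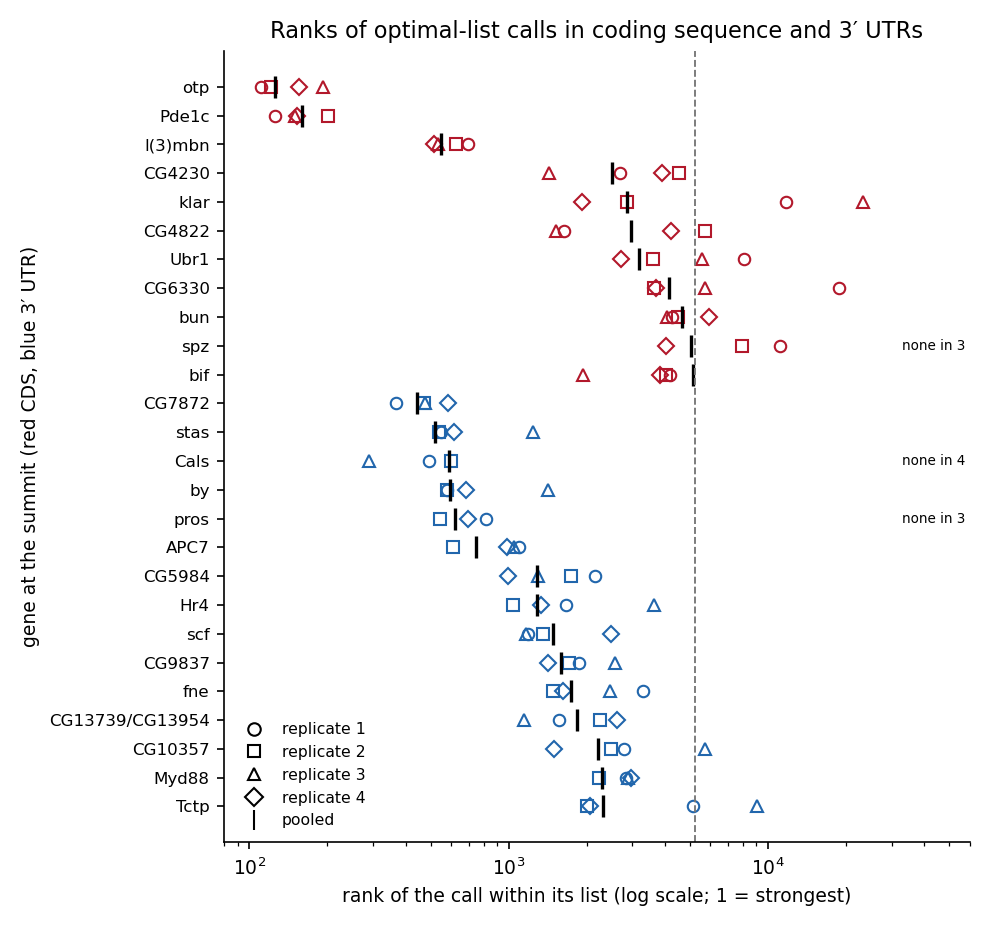
Ranks of the 11 optimal CDS calls (red) and of the 15 strongest optimal 3′ UTR calls (blue) in each replicate, on a log scale where 1 is the strongest. Black ticks are pooled ranks, and the dashed line marks rank 5211. The replicates lie close together for otp and Pde1c, between 111 and 201, and span 1912 to 23352 for klar.

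The optimal CDS calls lay near the edges of coding segments. Their summits were a median of 46 bp from the nearest edge of a coding segment, against 104 bp for the 853 CDS calls outside the optimal list and 170 bp for all eligible CDS bases. The exons holding them were also shorter, with median lengths of 257, 704 and 972 bp in these 3 sets, and the part of exon length in the edge distances was not tested. Within 50 bp of an edge were 6 of 11 (54.5%, 95% interval 23.4 to 83.3%), against 29.9% of the CDS calls outside the list and 20.6% of eligible bases. Of the bases in the interval, a median of 47.9% was CDS, from 13.2% at CG6330 to 98.0% at otp. None of the 11 intervals was entirely CDS, whereas 251 of the 853 others were (29.4%). Intron made up 54.9% of the interval at l(3)mbn, 67.5% at spz and 83.5% at CG6330. 5′ UTR made up 29.5% at Ubr1 and 31.6% at bun. With intervals of about 424 bp, a summit inside CDS does not place the whole call there.

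**Figure D4:**
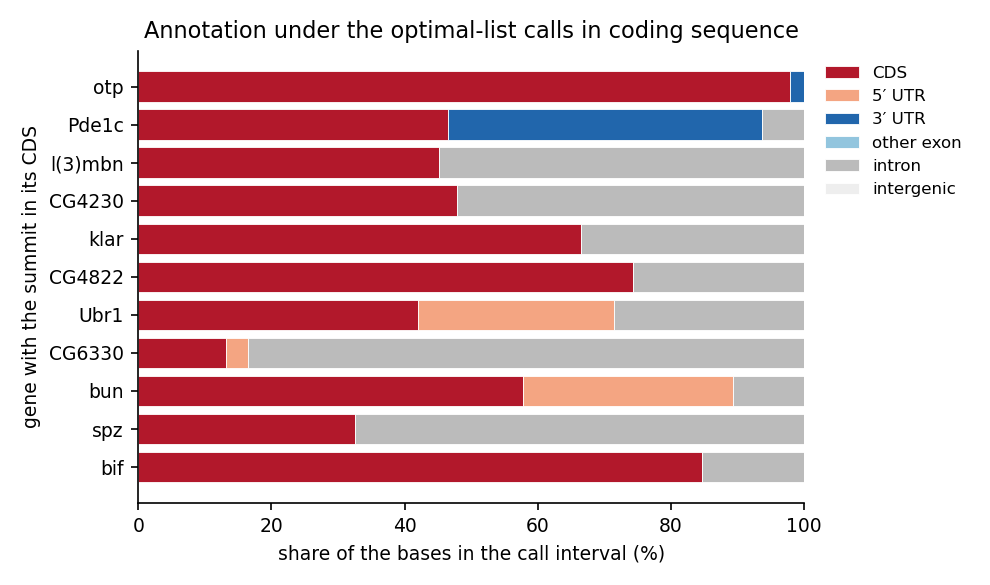
Bars show what share of the bases under each optimal CDS call is annotated as CDS, 5′ UTR, 3′ UTR, other exon, intron or intergenic sequence, with genes in order of pooled rank. The CDS share runs from 13.2% at CG6330 to 98.0% at otp, and intron is present in every interval but that of otp.

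The optimal CDS calls were divided between the start of the coding sequence and its later parts. In 6 of 11 (54.5%, 95% interval 23.4 to 83.3%) the summit was in the first 10% of its length, at CG6330, bun, CG4230, spz, Ubr1 and klar, and that at bif was at 10.4%. The other 4 lay in later parts, at 63.7% for l(3)mbn, 74.2% for CG4822, 92.2% for otp and 99.4% for Pde1c, and they include the 3 strongest. A summit in the first 10% was found for 130 of all 864 CDS calls (15.05%), against 5.20% of eligible CDS bases. Eligible bases already leave out the 500 bp next to a TSS. The median relative position was 9.71% for the 11, 51.1% for the CDS calls outside the list and 56.1% for eligible bases. CDS calls as a class were nearer to a TSS than eligible bases, with a median of 1392.5 against 1890 bp. For the 11 optimal calls this distance was 1942 bp, from 572 bp at l(3)mbn to 4658 bp at otp. An intron of another coding transcript covered 3 of the 11 summits and 143 of all 864 (16.6%), against 12.3% of eligible bases.

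Just below the optimal list, 8 further CDS calls had ranks from 5302 to 6851. Cht6, for a chitinase, ranked 4648, 4718, 8580 and 8550 in replicates 1 to 4. The salivary glue gene Sgs3, which codes for a repetitive secreted protein, ranked 3560, 10617, 11338 and 6039. sgg, for the kinase GSK-3 of the Wingless pathway, ranked 6370, 5356, 11566 and 7574. The others were Tim17b1 (5397), for a mitochondrial import protein, fok (5981), wde (6010), for a cofactor of the H3K9 methyltransferase Eggless, Naprt (6824) and RanBPM (6851). None of the 8 was strong in more than 2 replicates, and 6 of 8 had a call in all 4 at some strength.

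The 56 optimal 3′ UTR calls had pooled ranks from 444 to 5169. The strongest was at CG7872 (FBgn0030658), at base 365 of a 3′ UTR of 422 (X from 15579689 to 15579915), and ranked 369, 472, 474 and 584. The second was at stas (FBgn0030850), for the membrane protein Stasimon (X from 17624987 to 17625186), with ranks of 548, 540, 1236 and 616. Both were among the 1236 strongest calls of every replicate.

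Cals (FBgn0039928), for the neuronal cadherin-family protein Calsyntenin, ranked 493, 600 and 288 in replicates 1 to 3. In replicate 4 no summit fell inside the interval, but a call of rank 812 had its summit 210 bp away. by (FBgn0000244), for the focal adhesion protein tensin, ranked 578, 577, 1414 and 682. pros (FBgn0004595), for the homeodomain factor Prospero of neuronal differentiation, ranked 818, 541 and 698 in replicates 1, 2 and 4. In replicate 3 the nearest call was 14903 bp away. Its summit was at base 892 of a 3′ UTR annotated at 15530 bases.

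APC7, for a subunit of the anaphase-promoting complex, ranked 1096, 611, 1049 and 985. CG5984 ranked 2151, 1734, 1299 and 997. Hr4, for a nuclear receptor of the ecdysone response, ranked 1664, 1042, 3648 and 1335. These 3 were strong in all 4 replicates, with replicate 3 the weakest at Hr4 alone.

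The next were scf (1191, 1361, 1161 and 2478), for a calcium-binding protein, CG9837 (1866, 1708, 2581 and 1417) and fne (3288, 1487, 2452 and 1617), for a neuronal RNA-binding protein. A summit shared by CG13739 and CG13954 ranked 1563, 2253, 1144 and 2616. Myd88, for the adaptor of the Toll receptor, ranked 2831, 2222, 2883 and 2968. CG10357 (2783, 2474, 5694 and 1495) and Tctp (5136, 1998, 9085 and 2053), for a growth-related protein, missed the strong set in replicate 3. Of the 15 strongest optimal 3′ UTR calls, 11 were strong in all 4 replicates.

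fne belongs to the ELAV family of RNA-binding proteins, and its relatives Rbp9 and elav also had an optimal 3′ UTR call. Over all protein-coding genes, 59 of 13945 (0.423%) had an optimal 3′ UTR call. The family was singled out after the values were seen, so nothing is read from its count. Rbp9 had pooled rank 4200 and ranks of 4848, 4783, 6198 and 4441 in replicates 1 to 4. elav had pooled rank 4608 and ranks of 5875, 6041, 4869 and 4612. Both lay near the weak end of the optimal list. The elav summit also lay inside the genes arg and lncRNA:enrr. The 3′ UTRs at the 3 summits were annotated at 4927, 5048 and 8557 bases.

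Replicates held the optimal members about as often as other optimal calls. A member was held when a replicate had a call with its summit inside the member's interval. All 4 replicates held 10 of 11 optimal CDS calls and 49 of 56 optimal 3′ UTR calls (87.5%) at any strength, against 88.03% of all optimal calls. As strong calls in all 4, the counts were 5 of 11 (45.5%) and 22 of 56 (39.3%), against 48.2% of all optimal calls and 49.5% of optimal intron calls. Agreement is partly built in, because the pooled list came from the same 4 alignments and all lists share 1 control. The 8 optimal members that some replicate lacked were spz and the 3′ UTR calls at Cals, pros, CG1888, Octalpha2R, puml, CG4593 and the overlapping genes CG13510, CG13511 and CG42565. Replicate 3 lacked 7 of them and replicate 4 lacked 2, with CG4593 missing from both.

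Outside the optimal list, members were held by all 4 replicates less often than calls outside it as a whole. All 4 replicates held 53 of 853 CDS calls (6.21%) and 83 of 569 3′ UTR calls (14.6%) at any strength, against 20.01% of all 24789 pooled calls outside the list and 20.5% of intron calls outside it. CDS and 3′ UTR calls were also weaker as classes, with median pooled ranks of 22188.5 and 18403 against 15853.5 for intron calls. Support was not compared at matched rank, so the part of call strength in this difference was not tested. None was strong in all 4 replicates, and 132 of the 24789 were (0.532%). No replicate held 34 of the CDS calls (3.99%) and 14 of the 3′ UTR calls (2.46%). Replicate 3 held 32.1% of these CDS calls, against 52.3 to 59.0% in the other replicates.

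Along 3′ UTRs, the optimal calls lay towards the 3′ end. In the last of 3 equal parts of the 3′ UTR lay 29 of 56 (51.8%, 95% interval 38.0 to 65.3%), against 40.9% of the 569 calls outside the optimal list and 33.5% of eligible bases. The median distance to the end of the transcript was 389.5, 505 and 539 bp in these 3 sets. Within 200 bp of that end were 35.7% of the optimal calls and 26.2% of the others, against 25.5% of eligible bases. 3′ UTR length was alike, with medians of 1330.5, 1408 and 1375 bases. The end of a transcript on the opposite strand lay within 1000 bp of 17 of 56 optimal summits (30.4%), 19.7% of the others and 27.6% of eligible bases. An intron of another coding transcript covered 6 of the 56 summits.

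Base composition differed between optimal and weaker 3′ UTR calls more than between optimal and weaker CDS calls. GC content was taken over 50 bp to either side of the summit. Its median was 34.2% in optimal 3′ UTR calls, 39.6% in those outside the list and 34.7% at eligible bases, so that the weaker calls were the GC-richer ones. For CDS calls inside and outside the list, and for eligible CDS bases, the median was 53.5% in each. The replicates' own lists gave medians of 54.5, 52.5, 54.5 and 53.5% for CDS calls and 38.6, 37.6, 37.6 and 37.6% for 3′ UTR calls. In narrower windows of 51 bp, mean GC at optimal 3′ UTR summits was 35.1%, against 41.5% and 38.9% at 500 bp to either side. At optimal intron summits it was 33.7%. CDS summits showed the opposite shape, with 53.7% at the 11 optimal summits and 53.6% at the others. The rule places each member summit inside CDS or a 3′ UTR, while windows further away can lie outside it. The member profiles are thus partly set by the rule, and none was made for eligible bases.

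**Figure D5:**
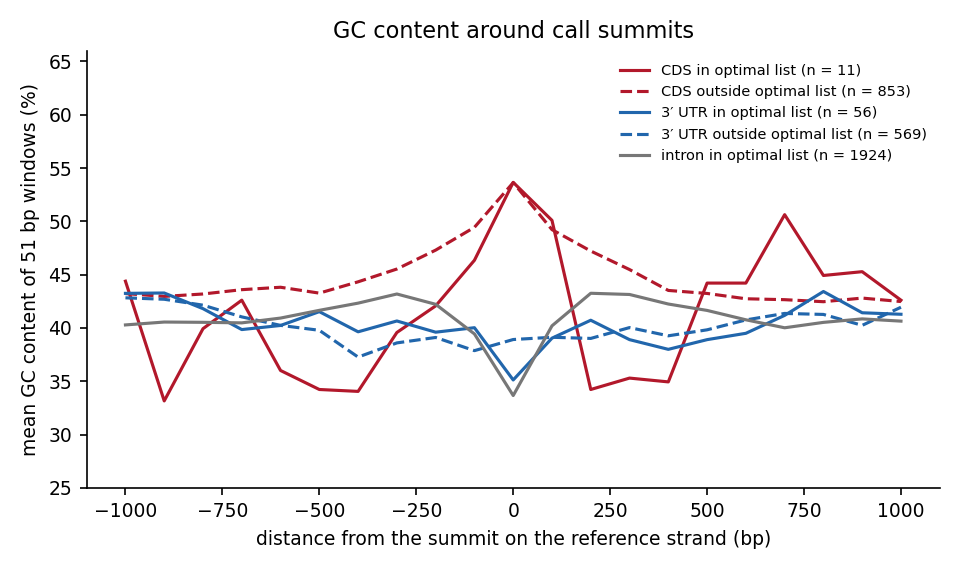
Mean GC content in windows of 51 bp is plotted against distance from the summit along the reference strand. CDS calls peak near 53.6% at the summit, while optimal 3′ UTR and intron calls dip to 35.1% and 33.7% there. The optimal CDS curve rests on 11 calls and varies accordingly. Member summits lie in CDS or 3′ UTRs by rule and distant windows need not, so the member curves are partly set by the rule.

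Words in the sequence were counted on both strands within 50 bp of the summit. A match is a description of these letters and not of a binding event. Word shares were not taken at eligible bases, so how common each word is in CDS or 3′ UTRs as such was not tested. AATAAA was found at 17 of 56 optimal 3′ UTR summits (30.4%), including CG7872, stas and Cals, and at 20.0% of those outside the list. It was at 29.7% of optimal intron summits and at 22.2% of all pooled calls. At CDS calls its share was 3.36%. CAGCAGCAG, which as codons can encode runs of glutamine, was at 36 of 864 CDS calls (4.17%) against 0.8% of all pooled calls. Among the optimal CDS calls it was present at bun only, in the window shown above.

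The promoter words TATCGATA, the site of Dref, and GGTCACACT, the site of M1BP, were not found at any of the 67 optimal members. With 0 of 56 optimal 3′ UTR calls, a share of up to 6.38% is allowed by the 95% interval. Over all 1489 members TATCGATA occurred 3 times (0.201%) and GGTCACACT 0 times, against 0.84 and 0.417% of all pooled calls. At promoter calls the shares were 2.42 and 1.27%, and at intron calls 0.170 and 0.085%. Low shares were therefore not particular to members. CATCNCTA and CACGTG were likewise at none of the 67 optimal members. They were at 1.00 and 1.03% of all pooled calls, and at 0.672 and 1.14% of all 1489 members. At such shares, counts of 0 among 67 say little. CAGCTG was at 7.29% of CDS and 4.64% of 3′ UTR calls, against 4.67% of all pooled calls, and Pde1c was the 1 optimal CDS call with it.

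Words of 7 bases were also taken from the 5144 optimal summits that are not members. The 3 with the highest ratio to windows 500 bp to either side were ACTATAG (ratio 3.17), the word CTATAGA (2.97), which overlaps the former by 6 bases, and GTAAACA (2.77). GTAAACA, or its reverse complement TGTTTAC, was at 5.75% of these summits and 2.08% of their flanks. It was at 6 of 56 optimal 3′ UTR calls (10.7%, 95% interval 4.03 to 21.9%), namely by, CG4004, Uck, ETHR, chic and bab2. The share was 3.87% in 3′ UTR calls outside the list, 1.27% in CDS calls, 7.90% at optimal intron summits and 3.72% in all pooled calls. None of the 11 optimal CDS calls had it. ACTATAG and CTATAGA were at the same pair of optimal 3′ UTR calls, CG5895 and Ppa, which is 3.57% of 56 against 0.607 and 0.713% of all pooled calls.

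Members were spread over many genes. At least 1 member lay in the CDS or 3′ UTR of 1236 of the 13945 protein-coding genes, a background share of 8.86%. A single member was found in 1053 of them, 133 had 2 and 33 had 3. The 17 genes with 4 or more were led by scrib, a cell polarity gene, with 5 calls in CDS and 3 in 3′ UTRs. corto, for a chromatin factor, had 7 in its 3′ UTR, Bsg (Basigin) had 3 in CDS and 4 in its 3′ UTR, and CG1888 had 6 in its 3′ UTR. CG42342 had 6, and Cda5, ps, raskol and Glut4EF had 5 each. Cam (calmodulin), Syt1 (a synaptic vesicle calcium sensor), zfh2, Rac2, Pdp1, bun, CG43736 and aqz had 4 each. Only CG1888, bun and aqz of these 17 had an optimal member.

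The share of genes with a promoter peak was higher among genes with a member than among all genes. The part of gene length and of the number of TSSs in this difference was not tested. Over all protein-coding genes, 19.9% had an optimal peak within 500 bp of a TSS. The share was 28.9% for the 1236 genes with any member (357 genes, 95% interval 26.4 to 31.5%). It was 20 of 59 (33.9%, 22.1 to 47.4%) for genes of optimal 3′ UTR calls and 3 of 11 for those of optimal CDS calls. For genes of CDS calls outside the list it was 29.6%, and for 3′ UTR calls outside the list 30.3%. The shares inside and outside the list lie within each other's intervals. Another optimal summit lay within 1000 bp of 63 CDS calls (7.29%) and 31 3′ UTR calls (4.96%), against 3.503 and 3.84% of eligible bases.

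Housekeeping lists had shares of genes with a member below and above the background of 8.86%, and at most 1 optimal call. Of 85 cytosolic ribosomal protein genes, 4 had a member (4.71%, 95% interval 1.297 to 11.6%), where the background is 8.86%, and RpS26 had the only optimal call, in its 3′ UTR at rank 4999. RpS27, RpL12 and RpS15Aa had calls of rank 14306 or weaker. Translation factors had 2 of 54 (3.70%, interval 0.452 to 12.7%), eIF5B and eEF2. Both intervals include the background share. Heat shock and chaperone genes had 2 of 24 (8.33%), Hsp27 and Hsc70-5. Glycolysis had 1 of 11 (9.09%), Hex-A, and tubulins had 1 of 9 (11.1%), betaTub97EF. Actins had 2 of 6 (33.3%), Act5C in the 3′ UTR and Act57B in CDS. Expression was not measured in these files.

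Neuronal and muscle genes had the highest counts for their list size, in lists of 10 and 12 genes. The neuronal list had 4 of 10, all in 3′ UTRs. Syx1A, for the synaptic syntaxin, had an optimal call of rank 3987, with ranks of 5503, 4170, 9469 and 4220 in replicates 1 to 4, and elav had the call given above. Syt1 (9974) and the sodium channel gene para (20161) had weaker ones. The Syx1A summit also lay inside the gene eIF4EHP, and the elav summit inside arg and lncRNA:enrr. Both of these summits were in an intron of another coding transcript. Among 12 muscle structure genes, 5 had a member, namely sls, bt, Mf, Mhc and Mlc2, with best ranks from 15077 to 28053 and none optimal. The list counts carry no test, and long CDS and 3′ UTRs offer more bases for a summit to fall in.

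Each patterning list had 1 or 2 genes with a member, none of them optimal. They were lab among 8 Hox genes (12.5%), opa and odd among 14 gap and pair-rule genes (14.3%), hh and nkd among 10 segment polarity genes (20%), and E(spl)mbeta-HLH among 11 Enhancer of split genes (9.09%). These shares are above the background of 8.86%, and at this list size the interval of each includes it. The best placed was the 3′ UTR call at hh, the Hedgehog ligand gene, at rank 8700. Cuticle genes had 2 of 96 (2.08%, interval 0.253 to 7.32%), Cpr35B and Cpr11A. Chemoreceptor genes had 4 of 179 (2.23%, interval 0.612 to 5.62%), Or24a, Ir68a, Ir21a and Ir31a. All these calls had ranks of 19405 or weaker. The cuticle and chemoreceptor intervals lie below the background share. Those of the neuronal (12.2 to 73.8%) and muscle (15.2 to 72.3%) lists lie above it. The part of CDS and 3′ UTR length in these shares was not tested. Of 12 architectural and zinc finger genes, Dref had a CDS call of rank 21544. No member was found in 9 extracellular matrix genes or in 13 yolk and chorion genes.

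The distance rule left out calls that were close to it. The members nearest to the limit had summits 501, 502 and 503 bp from a TSS, in the CDS of Glyat, smp-30 and spel1. The nearest coding summits left out were at 496, 496 and 495 bp. None of these 6 was in the optimal list.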

How the data were processed

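The deposited files are lists of calls on dm6, per the text notes deposited with the samples. The authors made 1 list per replicate and 1 from the 4 alignments together, all against 1 shared control, and an optimal list by irreproducible discovery rate. Each call has a deposited signal score on a scale that differs between lists, a deposited −log10 q-value and a summit offset. The p-value column is empty and was not used. Aligner, caller and versions are not given in the sources used here. No read counts are given, so depth is unknown.

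Summits were placed with Ensembl 115 in the order promoter, 5′ UTR, CDS, 3′ UTR, other exon, intron and intergenic (Python 3.11.15, numpy 2.4.6, scipy 1.17.1). Eligible bases were sampled every 25 bp. The class assignment and the test were checked on simulated calls. Replicates were compared by exact two-sided sign-flip tests over 4 replicates, 5 in all. Shares carry 95% Clopper-Pearson intervals, for counting error only. Words of 7 bases needed at least 40 summits.

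Members, lists, words and alternatives were chosen with earlier results of these data known. Named genes are all optimal CDS members, the 15 strongest optimal 3′ UTR members, the 8 strongest other CDS members, genes with 4 or more members, and genes in small list counts. Sequences are shown for some members only. Alternatives changed the TSS distance, the TSSs used, the class order, the transcripts, the strong calls, the ranking, the window and the replicates.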

Additional observations from a re-analysis of the deposited data

Results flagged for a closer look

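A replicate far from the other 3 was looked for in 25 sets of 4 values, and chance marks about 5% of such sets, or 1 in 20. Replicate 1 stood apart in 5 of the 6 that were marked. It had 26 strong CDS calls, against 12, 13 and 14, so that CDS made up 0.499% of its strong calls, against 0.230 to 0.269%. The share repeats the count, since every replicate has 5211 strong calls. Replicate 1 also held 16 of the CDS calls outside the optimal list as strong calls, against 4, 6 and 4. The sets are thus not independent of one another, and the number marked cannot be weighed against the 5%. Its 3′ UTR calls had a median GC content of 38.6%, against 37.6% in each of the other 3. With those 3 tied, a gap of any size would have been marked. The difference between 3′ UTR and intron calls in the share that was strong was -6.30 points in replicate 1, against -7.83 to -8.10 points. Replicate 3 held 10 of the 11 optimal CDS calls and the other replicates all 11, the one lacking being spz.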

How the results depend on the processing

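The 5 differences between replicate shares kept their negative direction in all 12 alternatives, with exact p = 0.125 over 4 replicates and 0.25 over 3, the smallest possible. Their ranges were -6.55 to -3.34 points (CDS, strong against weak), -1.92 to -1.34 (3′ UTR), -8.23 to -2.37 (CDS against 3′ UTR), -17.4 to -6.80 (CDS against intron) and -9.16 to -4.42 (3′ UTR against intron). The smallest values of the last 3 came with 2605 strong calls per replicate in place of 5211, and the largest with strong calls defined by −log10 q above 2. With each replicate left out, the optimal share held as strong calls by all the remaining replicates was 0.579 to 0.694% for CDS and 3.52 to 4.80% for 3′ UTRs, a stricter condition by construction. Median GC of CDS calls was 54.9% within 25 bp and 52.2% within 100 bp, and that of 3′ UTR calls 37.3% within 25 bp. Requiring overlap in place of a summit inside moved support in all 4 replicates from 13.1 to 13.2% of members. The 5 differences are taken within each replicate and so are paired by replicate already, and with 1 group no replicate block between groups applies. Read depth is unknown, so weak calls cannot be weighed by it, and 11 optimal CDS calls give wide intervals.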
